A study of Mus musculus with 9 samples.

Results

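A set of 48 genes of thiol and metal defence was followed across the 9 mammary tumours of this series: the glutathione S-transferases, the glutathione peroxidases and peroxiredoxins, NRF2 with its repressor and a set of its classical target enzymes, the superoxide dismutases and catalase, and the metallothioneins *Mt1* and *Mt2*. The rule is a list of gene symbols and uses no measured value, though it was chosen with earlier results of these data known. Its members are 48 of the 14108 genes in the count tables. The rule fits 54 symbols of the mouse annotation, and *Gpx2*, *Gpx5*, *Gpx6*, *Gpx7*, *Gstm3* and *Gstp3* are not analysed here. RNA was sequenced from GFP-positive cells sorted out of orthotopic tumours of 3 mouse mammary cancer models, with 3 tumours each, to examine NFIB signalling in metastatic colonization. The parental model, HR1 (LB-mHR1), is a non-metastatic line established from a mammary tumour of a mouse with a *PIK3CA* H1047R transgene under the CAG promoter. LM1 and LM9 are each a single line grown out of a lung metastasis, after HR1 cells had been given a doxycycline-inducible *piggyBac* transposon system and injected into NOD/SCID mice, so all 3 models share the transgene and both LM models carry transposon insertions as well. For every tumour 250000 cells were injected into the mammary fat pad of female NOD/SCID mice aged 4 to 8 weeks, and tumours were taken before 1500 mm3. The sources used here do not say whether the 3 tumours of a model came from separate mice, so the p-values measure only the spread between these tumours, and a difference between models is a difference between 3 cell lines.

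Glutathione is the main small thiol of the cell. It is built by glutamate-cysteine ligase and glutathione synthetase, kept reduced by glutathione reductase, spent on peroxides by glutathione peroxidases and joined to reactive compounds by glutathione S-transferases. The transcription factor NRF2 (*Nfe2l2*), held low by KEAP1, switches on many of these enzymes through antioxidant response elements, whereas metallothioneins bind zinc and copper and are switched on by the zinc sensor MTF1 through metal response elements. In mammary tumours both systems are studied for their part in tolerance of oxidants and drugs.

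The tables held 32393958 to 46681945 counts per tumour, and all 48 genes passed the filter on low counts. Levels are given as CPM, counts scaled to a common TMM-adjusted library size, for replicates 1, 2 and 3 of a model in that order. *Nfib*, the gene by which the study distinguishes the LM models, stood at 1343, 23.9 and 18.3 CPM in the HR1 tumours against 421 to 791 CPM in the LM tumours, so the tumour labelled HR1 replicate 1 goes against its label. Every comparison with HR1 was therefore also made without it. That tumour had the highest HR1 level of 23 of the 48 genes, the lowest of 16, and for 15 genes a level above all 8 other tumours. Of the epithelial markers, *Epcam* did not exceed 4.49 CPM, *Krt8*, *Krt7* and *Elf5* are not analysed here, and *Krt14* ranged from 1.56 to 175 CPM. The measured epithelial markers summed to 7.55 to 120.5 CPM in HR1, 156 to 180 CPM in LM1 and 13.6 to 16.3 CPM in LM9, which is little for cells labelled as mammary cancer. The 10 fibroblast-type genes, which tumour cells of mesenchymal character also express, summed to 27150 to 36110 CPM in HR1, 11100 to 14960 CPM in LM1 and 11770 to 13870 CPM in LM9. The 10 leukocyte markers summed to 185 to 738, 166 to 173 and 199 to 247 CPM. *Cd68* alone held 107 to 138 CPM of this in LM9, 15.9 to 17.9 CPM in LM1 and 24.2 to 122 CPM in HR1. Over both LM models 7 of the 10 were lower, with 5 in LM1 versus HR1 and 8 in LM9 versus HR1. Of all genes 23.6%, 18.7% and 21.9% were lower in these comparisons. The 3 listed red cell markers summed to 27.3 to 246, 20.6 to 67.1 and 7.08 to 18.5 CPM, and the 7 listed endothelial markers to 11.2 to 36.8, 166 to 230 and 261 to 298 CPM. The endothelial sums were carried by *Cdh5* and *Kdr*, which were higher in the LM models. Of the 7, 4 were lower over both LM models, 0 in LM1 versus HR1 and 2 in LM9 versus HR1. *Pecam1* was at or below 6.42 CPM and the 2 listed adipocyte markers summed to at most 9.24 CPM in every tumour. The part of other cells in the results was not tested, and in such bulk samples fewer cells of a type and less RNA per cell cannot be told apart.

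In both LM models the metallothioneins, 2 theta-class transferases and the extracellular superoxide dismutase *Sod3* were higher than in HR1, and *Hmox1* was higher in LM9, while *Nqo1*, *Srxn1*, all 4 alpha-class and both pi-class transferases, *Gstm1*, *Gstm7* and *Mgst3* were lower in both. Of the 48 genes, 27 differed between the 6 LM and the 3 HR1 tumours at an adjusted p under 0.05 (edgeR's quasi-likelihood test over 14086 genes, Benjamini-Hochberg), which is 56.2% of them beside 43.6% of all genes tested. The LM tumours had the higher level for 6 and the lower for 21, beside 19.9% and 23.6% of all genes, and the median log2 fold change was -0.58 against -0.05 over all genes. A value printed in brackets before an adjusted p is a log2 fold change from the same fit. In LM1 versus HR1, 20 genes passed (5 higher and 15 lower), beside 35.5% of all genes, 16.7% higher and 18.7% lower. In LM9 versus HR1, 31 passed (7 higher and 24 lower), beside 42.3% of all genes, 20.4% higher and 21.9% lower. Both comparisons use the same 3 HR1 tumours: 5 genes were higher in both, 13 lower in both, 2 lower in LM1 alone, 2 higher and 11 lower in LM9 alone, and 15 passed in neither. Without HR1 replicate 1, 31 genes passed (9 higher and 22 lower) in LM1 and LM9 versus HR1, beside 56.0% of all genes, 29 in LM1 versus HR1 beside 52.8%, and 35 in LM9 versus HR1 beside 55.7%. For 18 genes no LM tumour overlapped the HR1 tumours, which is 37.5% of the 48 beside 29.9% of all genes. Of the 27 calls, 23 held whichever tumour was left out, and *Cat*, *Gstm5*, *Mgst1* and *Mgst2* lost theirs in at least 1 case. In LM1 versus HR1 15 of the 20 held, and *Cat*, *Gsta1*, *Gstt1*, *Mgst2* and *Sod3* did not. In LM9 versus HR1 22 of the 31 held, and *Gpx4*, *Gpx8*, *Gsta1*, *Gstm4*, *Gstm5*, *Keap1*, *Mgst1*, *Sod1* and *Sod2* did not.

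**Figure D1:**
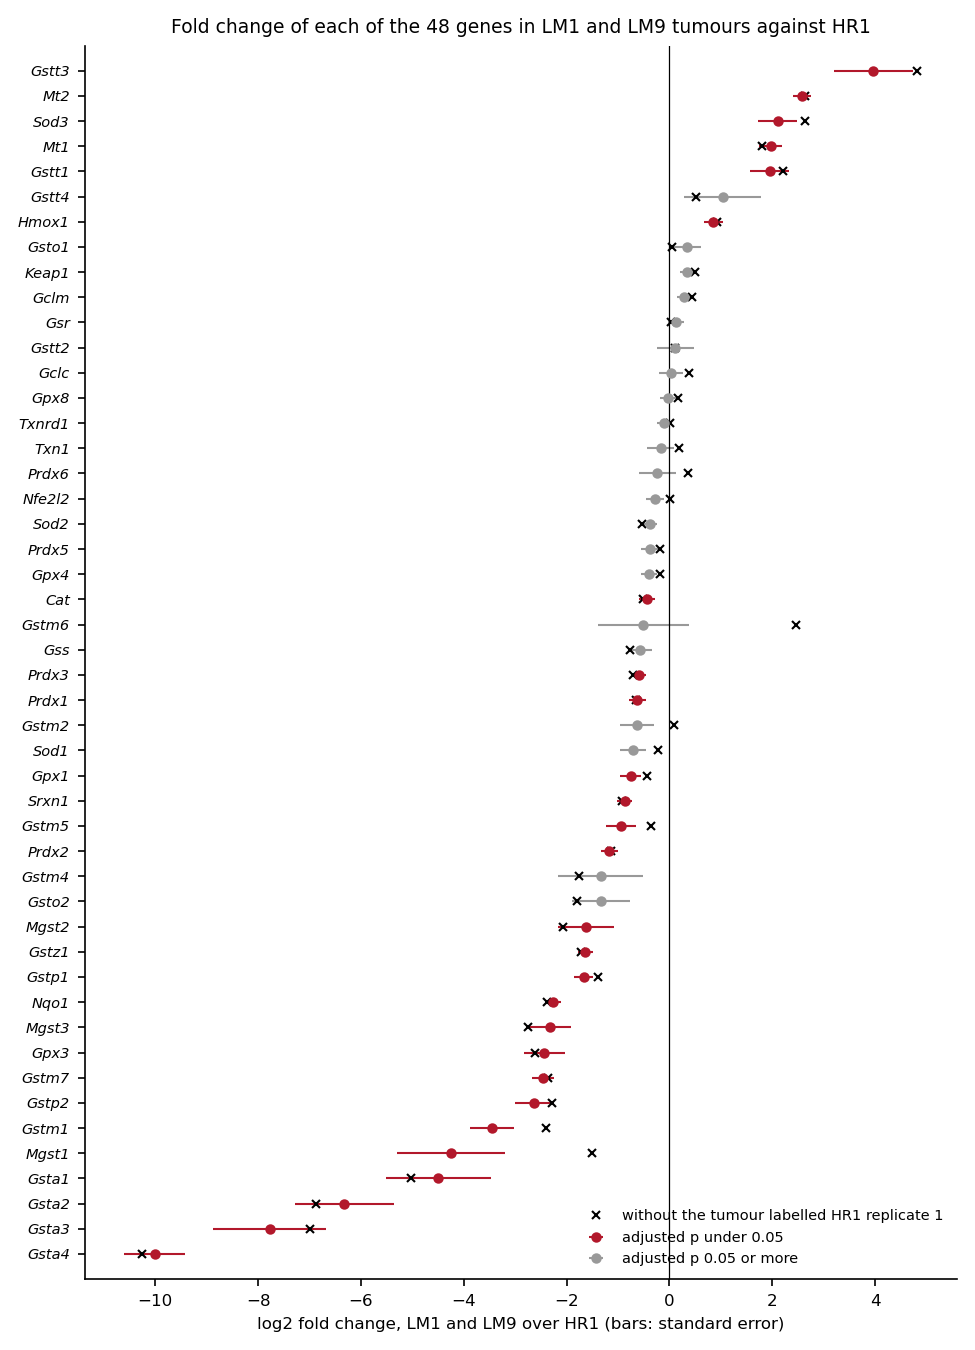
Log2 fold change of each of the 48 genes in the 6 LM tumours over the 3 HR1 tumours (horizontal axis), ordered by size, with bars for the standard error, red for adjusted p under 0.05 and grey otherwise, and crosses for the fit without the tumour labelled HR1 replicate 1. *Gstt3* and *Mt2* head the genes that rose and the 4 alpha-class transferases end the list, with values of *Gsta4* that depend on the prior count because all 3 LM9 tumours hold 0 reads. The cross lies far from the point for *Mgst1* and *Gstm6*.

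The metallothioneins rose in both LM models. *Mt1* (chr8:94178883-94180327, mm10) stood at 105, 187 and 135 CPM in the HR1 tumours, 581, 457 and 511 CPM in the LM1 tumours and 644, 703 and 478 CPM in the LM9 tumours. *Mt2* (chr8:94172618-94173567) stood at 93.6, 96.8 and 74.1 CPM in HR1, 528, 408 and 443 CPM in LM1 and 647, 685 and 489 CPM in LM9. Both genes were higher in each LM tumour than in any HR1 tumour, by more than the spread within a model. The mean ± s.d. (n = 3) of *Mt2* was 88.1 ± 12.3 CPM in HR1, 459.7 ± 61.3 CPM in LM1 and 607 ± 104 CPM in LM9. *Mt2* was 5.99-fold higher in the LM tumours (log2 fold change 2.58, s.e. 0.18, adjusted p = 4.18e-05) and *Mt1* 3.94-fold higher (log2 fold change 1.98, s.e. 0.22, adjusted p = 0.000321). Without HR1 replicate 1 the log2 fold changes were 2.63 and 1.80 (adjusted p = 5.69e-06 and 6.03e-05). LM1 and LM9 levels overlapped for both genes, with adjusted p = 0.498 for *Mt1* and 0.142 for *Mt2* in LM9 versus LM1. Per kilobase of exon, *Mt2* was the sixth most abundant of the 48 transcripts in HR1 (150 CPM per kb), the second in LM1 (782) and the first in LM9 (1033).

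The start regions of both metallothionein genes are shown because the genes lie side by side and moved together. The windows run from 250 bases before to 30 bases after the start in the RefSeq table (GRCm38.p6, plus strand), and capitals mark matches to the metal response element core, searched as TGCACNC or TGCGCNC on both strands. *Mt1* holds 3 matches at chr8:94178839-94179118 and *Mt2* 4 at chr8:94172368-94172647. The RefSeq start of *Mt1* lies inside the gene as the GENCODE coordinates above give it.
Mt1: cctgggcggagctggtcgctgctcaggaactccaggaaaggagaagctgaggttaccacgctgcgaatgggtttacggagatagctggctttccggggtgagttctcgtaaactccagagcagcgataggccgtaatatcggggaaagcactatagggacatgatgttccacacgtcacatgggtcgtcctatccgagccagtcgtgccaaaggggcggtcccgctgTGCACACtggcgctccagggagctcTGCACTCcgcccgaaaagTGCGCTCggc
Mt2: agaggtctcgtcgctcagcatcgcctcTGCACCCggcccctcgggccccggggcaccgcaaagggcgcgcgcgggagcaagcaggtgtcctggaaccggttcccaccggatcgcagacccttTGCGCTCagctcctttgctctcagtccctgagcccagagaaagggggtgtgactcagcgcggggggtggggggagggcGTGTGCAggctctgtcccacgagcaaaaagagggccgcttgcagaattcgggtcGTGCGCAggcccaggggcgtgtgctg
Of 32851 promoter windows of the same length, 24.1% hold at least 1 such match and 1.73% hold 3 or more. Windows could be matched for 41 of the 48 genes, and *Gclc*, *Gsr*, *Gsta4*, *Gstt2*, *Hmox1*, *Prdx6* and *Sod3* had none. Of these 41, 11 hold a match, and *Mt1* and *Mt2* are the ones with 3 or more. In *Gsta1* and *Gsta2* the matches on the 2 strands overlap each other. A match describes these letters and not a bound site.

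*Sod3*, which encodes the secreted superoxide dismutase bound to the cell surface and matrix, rose with the metallothioneins. Its level was 126, 76.4 and 32.2 CPM in HR1, 230.3, 206 and 224 CPM in LM1 and 492, 543 and 514 CPM in LM9. The 3 models did not overlap, with LM9 highest. It was 4.30-fold higher in the LM tumours (log2 fold change 2.11, s.e. 0.37, adjusted p = 0.00251), and the log2 fold change was 2.64 without HR1 replicate 1 (adjusted p = 9.91e-05). Against HR1 it was 1.49 in LM1 (adjusted p = 0.019, and 0.0563 or 0.0504 without LM1 replicate 1 or 3) and 2.72 in LM9 (adjusted p = 0.00145). LM9 versus LM1 missed the threshold in the fit of all 9 tumours (log2 fold change 1.23, adjusted p = 0.0538) and passed it without HR1 replicate 1 (adjusted p = 0.00437). *Sod3* (chr5:52363804-52369738) has 3 neighbours with a mean of at least 1 CPM within 250000 bases, and 2 of these rose as well. *Ccdc149*, the next gene, went from 0.200, 0.203 and 0 CPM in HR1 to 5.33, 5.78 and 4.52 CPM in LM1 and 17.8, 15.7 and 18.5 CPM in LM9 (log2 fold change 6.13, adjusted p = 0.00028). *Lgi2*, beyond it, had 0, 1 and 0 reads in the HR1 tumours and 6.74, 6.14 and 7.14 CPM in LM1 and 35.8, 40.1 and 38.3 CPM in LM9. The ratio of its summed scaled counts to HR1 was 755 for LM1 (95% counting interval 135 to 29800) and 4310 for LM9 (773 to 170000). Both neighbours had the same order of models as *Sod3*, HR1 below LM1 below LM9. *Dhx15*, on the other side of *Sod3*, stood at 182, 235 and 238 CPM in HR1, 275, 326 and 324 CPM in LM1 and 236, 239 and 255 CPM in LM9 and did not pass the test over both LM models (adjusted p = 0.0649), but was higher in LM1 versus HR1 (0.50, adjusted p = 0.0267), where all 3 neighbours passed. These neighbours were named after their values were seen. Around *Mt1* and *Mt2* 0 of 6 such neighbours were higher in the LM tumours and 2 were lower. *Mt3*, next to *Mt2*, is under 1 CPM and so outside this count, and it rose (adjusted p = 0.000454), with its values given at the end. Of the neighbours around the theta-class transferases, 1 of 11 was higher and 2 were lower. Over all genes 19.9% were higher and 23.6% lower in the LM tumours.

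**Figure D2:**
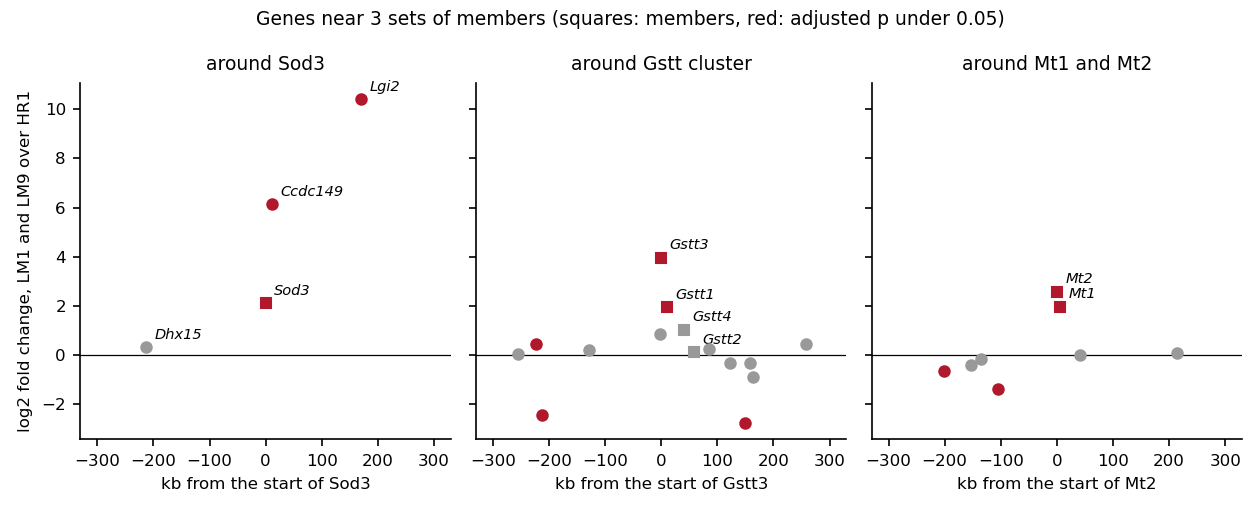
Log2 fold change in LM1 and LM9 over HR1 (vertical axis) against distance in kb from the start of *Sod3*, *Gstt3* or *Mt2* (horizontal axis) for the genes described here (squares) and their neighbours with a mean of at least 1 CPM (circles), red for adjusted p under 0.05. *Ccdc149* and *Lgi2* lie above *Sod3*, whereas the neighbours of the metallothioneins and the theta-class transferases lie between -2.75 and 0.86.

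**Figure D3:**
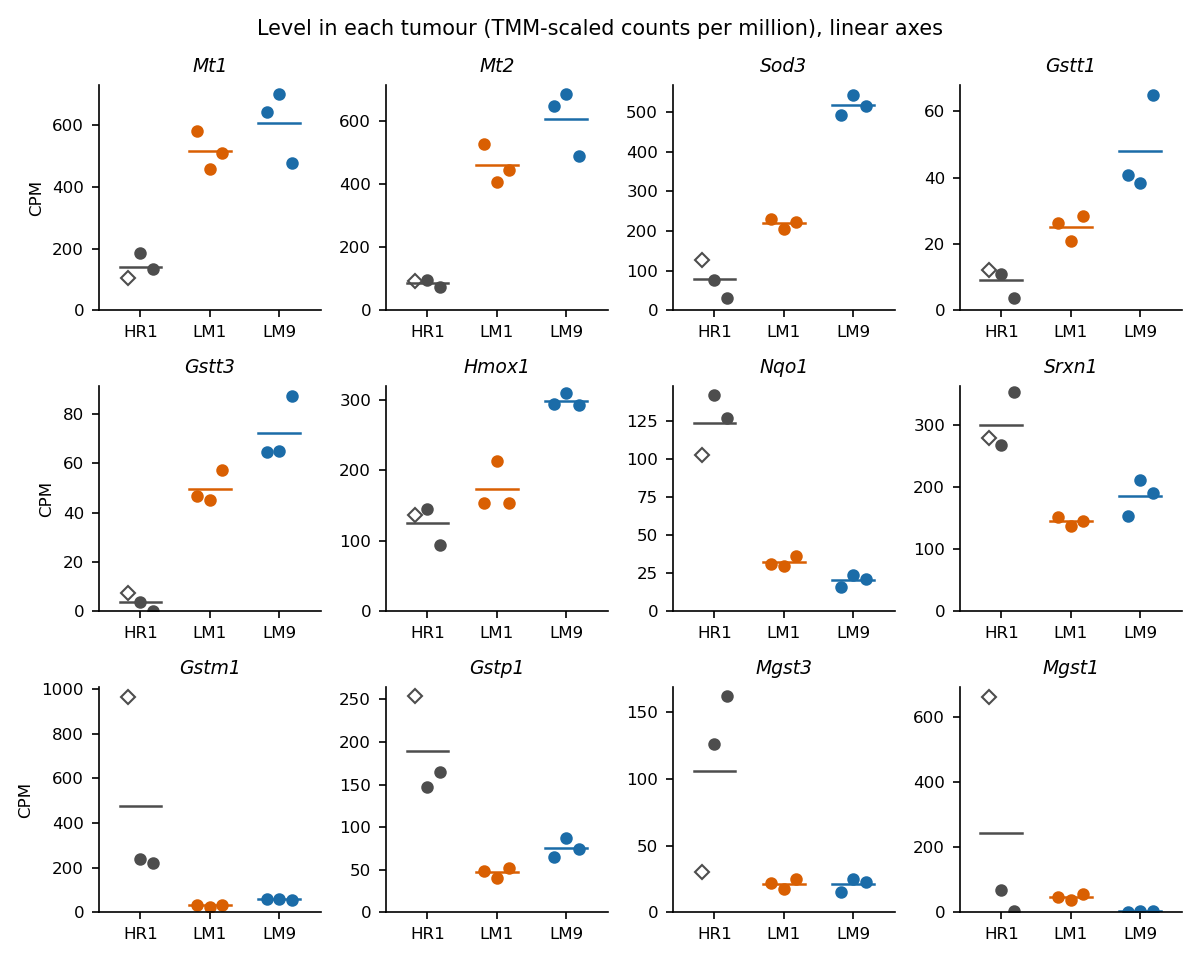
Level of 12 genes in each tumour in CPM on linear axes from 0, with a point per tumour, a bar for the mean of 3 tumours and an open diamond for the tumour labelled HR1 replicate 1. *Mt1*, *Mt2*, *Sod3*, *Gstt1*, *Gstt3* and *Hmox1* lie higher in all LM tumours than in HR1 and *Nqo1*, *Srxn1*, *Gstm1*, *Gstp1* and *Mgst3* lower, and *Mgst1* spans 3.45 to 661 CPM within HR1.

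Neither NRF2 nor KEAP1 transcripts passed the test between the LM and HR1 tumours. *Nfe2l2* was 175, 104 and 107 CPM in HR1, 87.9, 93.6 and 82.9 CPM in LM1 and 123, 129 and 129 CPM in LM9 (log2 fold change -0.28, adjusted p = 0.208, and 0.01 without HR1 replicate 1, adjusted p = 0.945). *Keap1* was 72.2, 54.6 and 54.5 CPM in HR1, 72.3, 73.2 and 69.8 CPM in LM1 and 80.8, 75.4 and 89.8 CPM in LM9. Its log2 fold change of 0.34 had an adjusted p of 0.0554, and 0.00312 without HR1 replicate 1 (0.50). With all 9 tumours, *Keap1* was higher than in HR1 in LM9 alone (0.44, adjusted p = 0.0376), a call lost whenever a tumour other than HR1 replicate 1 was left out. Without HR1 replicate 1 it was higher in LM1 (0.40, adjusted p = 0.0156) and in LM9 (0.59, adjusted p = 0.00214).

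The 3 classical NRF2 target enzymes went different ways. *Nqo1*, the quinone reductase often read as a marker of NRF2 activity, was 103, 142 and 127 CPM in HR1, 31.2, 29.8 and 36.4 CPM in LM1 and 16.0, 24.0 and 21.0 CPM in LM9. The models did not overlap in either LM comparison. It was 4.82-fold lower in the LM tumours (log2 fold change -2.27, s.e. 0.16, adjusted p = 3.95e-05), with -2.38 without HR1 replicate 1. *Srxn1*, the sulfiredoxin that repairs overoxidized peroxiredoxins, was 279, 267 and 352 CPM in HR1, 151, 138 and 146 CPM in LM1 and 152, 212 and 190.3 CPM in LM9, and fell 1.83-fold (log2 fold change -0.87, s.e. 0.14, adjusted p = 0.00144). *Hmox1*, the haem oxygenase that both NRF2 and BACH1 control, was 137, 145 and 94.4 CPM in HR1, 154, 213 and 154 CPM in LM1 and 294, 309.7 and 292 CPM in LM9. All 6 LM tumours were above HR1, the LM9 tumours most. *Hmox1* rose 1.81-fold over both LM models (log2 fold change 0.86, s.e. 0.18, adjusted p = 0.0048) and 2.38-fold in LM9 (adjusted p = 0.00171). In LM1 the log2 fold change was 0.47 (adjusted p = 0.0926, and 0.0439 without HR1 replicate 1).

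The 4 genes of glutathione synthesis and reduction and the 2 of the cytosolic thioredoxin system did not pass in LM1 and LM9 versus HR1. *Gclc* and *Gclm*, the catalytic and modifier subunits of glutamate-cysteine ligase, ranged over all 9 tumours from 30.6 to 67.7 CPM and from 39.1 to 65.5 CPM (log2 fold changes 0.03 and 0.29, adjusted p = 0.93 and 0.134). *Gss*, glutathione synthetase, was 65.1, 143 and 76.8 CPM in HR1 and 58.2 to 70.1 CPM in the LM tumours (log2 fold change -0.56, adjusted p = 0.07). *Gsr*, glutathione reductase, had a log2 fold change of 0.13 (adjusted p = 0.514). Without HR1 replicate 1, *Gclm* (0.44, adjusted p = 0.0182) passed as higher and *Gss* (-0.77, adjusted p = 0.00627) as lower. In the same fit *Gclc* passed as higher in LM9 versus HR1 (0.69, adjusted p = 0.0132) but not in LM1 versus HR1 (0.09, adjusted p = 0.716). *Txn1*, thioredoxin, was 1148, 794 and 444 CPM in HR1, 1009, 818 and 1010 CPM in LM1 and 459, 636 and 489 CPM in LM9, and *Txnrd1*, its reductase, 303 to 404, 368 to 418 and 251 to 311 CPM. Their log2 fold changes were -0.17 and -0.11 (adjusted p = 0.628 and 0.526).

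The peroxide-removing enzymes that passed over both LM models were lower, but only *Prdx2* and *Cat* of them passed in LM1 versus HR1. Without HR1 replicate 1, *Prdx6* (1.08, adjusted p = 0.0169) and *Gpx8* (0.67, adjusted p = 0.00479) passed as higher in LM1 versus HR1 and *Prdx3* (-0.50, adjusted p = 0.0158) as lower. Among the 5 peroxiredoxins, *Prdx2*, the peroxiredoxin abundant in red cells, was 424, 469 and 314 CPM in HR1, 225, 174 and 259 CPM in LM1 and 136, 148 and 153 CPM in LM9. It fell 2.25-fold (log2 fold change -1.17, s.e. 0.16, adjusted p = 0.000759). The 3 red cell markers were also lower over both LM models, though 0 of them passed in LM1 versus HR1, and their part in this was not tested. *Prdx1* and the mitochondrial *Prdx3*, named to account for this class of 5, had log2 fold changes of -0.62 and -0.59 (adjusted p = 0.0132 and 0.0102). They passed in LM9 versus HR1 (adjusted p = 0.00538 and 0.00646) and not in LM1 versus HR1 (0.216 and 0.101). *Prdx5* and *Prdx6* did not pass (-0.38 and -0.23). Of the 4 glutathione peroxidases, *Gpx3*, the secreted one, was 6.58, 15.9 and 5.09 CPM in HR1, 6.30, 5.14 and 5.84 CPM in LM1 and 0.623, 0.641 and 0.247 CPM in LM9. LM1 lay within the HR1 range and all LM9 tumours below it. Its log2 fold change was -0.67 in LM1 versus HR1 (adjusted p = 0.3) and -4.18 in LM9 versus HR1 (adjusted p = 0.000787). With a tumour left out, these values ran from -0.96 to -0.0181 and from -4.47 to -3.53. *Gpx1*, the abundant cytosolic peroxidase, named to account for this class of 4, fell 1.68-fold (adjusted p = 0.0168). None of the 4 passed in LM1 versus HR1 and all 4 were lower in LM9 versus HR1, *Gpx1* among them (-0.49 in LM1, adjusted p = 0.147, and -1.02 in LM9, adjusted p = 0.0106). *Gpx4* and *Gpx8* passed in LM9 versus HR1 near the threshold (adjusted p = 0.0452 and 0.0452), calls lost without several single tumours, among them HR1 replicate 1 (0.0751 and 0.0726). *Cat*, catalase, was 342, 491 and 331 CPM in HR1, 225, 232 and 236 CPM in LM1 and 303, 413 and 345 CPM in LM9. It was below every HR1 tumour in LM1 (-0.75, adjusted p = 0.0147, and 0.0583 without LM1 replicate 1) and overlapped HR1 in LM9 (-0.13, adjusted p = 0.589). Over both LM models it stood at the edge of the threshold (adjusted p = 0.0497), with 0.212 without HR1 replicate 2 and 0.0805 to 0.104 without LM1 replicate 1, 2 or 3 or LM9 replicate 1 or 3. *Sod1* and *Sod2*, the cytosolic and mitochondrial dismutases, had log2 fold changes of -0.71 and -0.38 (adjusted p = 0.0509 and 0.0622). With HR1 replicate 1 left out they were -0.22 and -0.54 (adjusted p = 0.196 and 0.00178), so *Sod2* then passed as lower. In LM9 versus HR1 both were lower (-0.98 and -0.51, adjusted p = 0.0303 and 0.0409), calls lost without any single LM9 tumour and, for *Sod2*, also without any LM1 tumour or HR1 replicate 2 or 3.

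The alpha-class transferases, which conjugate the products of lipid peroxidation among other substrates, were close to the detection limit in every LM tumour. *Gsta4*, specialised for 4-hydroxynonenal, was 12.6, 31.6 and 14.0 CPM in HR1, 0.0840, 0.0679 and 0.203 CPM in LM1 and 0 reads in each of the 3 LM9 tumours. Against the floor of 3 reads per tumour, the HR1 mean was at least 290.2-fold higher than LM9. For LM1 over HR1 the fitted log2 fold change was -7.35 (s.e. 0.66, adjusted p = 0.00046). *Gsta3* was 36.5, 22.6 and 0.335 CPM in HR1, 0.147, 0.0453 and 0.152 CPM in LM1 and 0.0644, 0.0687 and 0.0675 CPM in LM9. The HR1 tumours were far apart, and replicate 3 was near the LM level. LM9 held 9 *Gsta3* reads in all beside 2114 in HR1, a ratio of 279 with a 95% counting interval of 147 to 611. *Gsta2* was 0.632, 29.6 and 7.75 CPM in HR1 and 0.0859 to 0.383 CPM in the LM tumours, and *Gsta1* 0.399, 12.5 and 2.65 CPM and 0.0453 to 0.698 CPM. The log2 fold changes of *Gsta3*, *Gsta2* and *Gsta1* were -7.77, -6.32 and -4.50 (adjusted p = 0.000879, 0.00127 and 0.00803), and without HR1 replicate 1 they were -6.98, -6.88 and -5.03. Without HR1 replicate 2, the highest of the 3, *Gsta2* and *Gsta1* came to -4.73 and -2.74 and still passed. *Gsta1* lost its calls in LM1 versus HR1 and in LM9 versus HR1 without HR1 replicate 2 (adjusted p = 0.0593 and 0.158) or without LM1 replicate 2 or 3 (0.0546 to 0.081), and in LM9 versus HR1 also without any single LM9 tumour (0.0596 to 0.122). *Gsta1* shares 90.5% of its 50-base windows with other transcripts and *Gsta2* 49.8%, so their counts could be split between copies, while *Gsta4* shares none. The start region of *Gsta3* is printed as the 1 alpha-class window with a match to the antioxidant response element core, TGACNNNGC on either strand, in capitals (chr1:21240335-21240614, plus strand, RefSeq, GRCm38.p6).
Gsta3: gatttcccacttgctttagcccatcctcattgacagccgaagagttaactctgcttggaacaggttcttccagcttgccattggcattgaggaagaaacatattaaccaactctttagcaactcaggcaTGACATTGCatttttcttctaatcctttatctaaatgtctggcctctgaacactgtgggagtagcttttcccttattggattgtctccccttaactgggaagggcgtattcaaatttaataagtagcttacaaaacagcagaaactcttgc
Such a match is in 8 of the 41 windows and in 11.5% of all 32851. The other genes with one are *Gclm*, *Gstm5*, *Mgst1*, *Mt2*, *Nfe2l2*, *Prdx1* and *Sod1*, and in *Gclm* it overlaps a metal response element match. *Nqo1* and *Srxn1* have none in this window.

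Of the mu class, the largest class of cytosolic transferase transcripts in each HR1 tumour, 3 of 6 genes were lower over both LM models, 2 in LM1 and 4 in LM9, and of the pi class both. *Gstm1* was 965, 239.8 and 219 CPM in HR1, 35.3, 26.5 and 33.8 CPM in LM1 and 60.4, 61.7 and 56.7 CPM in LM9. HR1 replicate 1 stood above both other HR1 tumours, which were themselves above all LM tumours. The fall was 10.9-fold (log2 fold change -3.45, s.e. 0.43, adjusted p = 0.000513), with a log2 fold change of -2.39 without that tumour (adjusted p = 4.5e-07). *Gstm7* was 80.9, 83.7 and 53.5 CPM in HR1, 10.8, 7.84 and 11.4 CPM in LM1 and 20.9, 12.4 and 19.2 CPM in LM9 (log2 fold change -2.46, s.e. 0.21, adjusted p = 0.000104). *Gstm4* was low throughout, at 0.333, 2.27 and 0.823 CPM in HR1, 2.92, 3.71 and 4.72 CPM in LM1 and 0, 0.160 and 0 CPM in LM9. It was above all HR1 tumours in LM1 and below them in LM9. Of the other mu-class genes, named after their values were seen, *Gstm5* lost its call without HR1 replicate 1 or any LM tumour but LM1 replicate 3 (without HR1 replicate 1, -0.36 in place of -0.94, adjusted p = 0.0736), and *Gstm6* changed side, from -0.50 (adjusted p = 0.67) to 2.47 (adjusted p = 0.000316). *Gstm6* was 12.6, 0.720 and 0.437 CPM in HR1 and 2.57 to 5.18 CPM in the LM tumours. *Gstm2* did not pass (-0.62, adjusted p = 0.158, and 0.09 without HR1 replicate 1, adjusted p = 0.609). *Gstp1*, the pi-class enzyme widely used as a tumour marker, was 254, 147 and 165 CPM in HR1, 48.1, 40.8 and 51.9 CPM in LM1 and 64.4, 87.2 and 74.4 CPM in LM9. It fell 3.17-fold (log2 fold change -1.67, s.e. 0.18, adjusted p = 0.000286), as did its close copy *Gstp2* at a lower level (-2.63, adjusted p = 0.000764). *Gstp1* shares 33.7% and *Gstp2* 54.3% of its windows with other transcripts, mostly with each other. Around them, 11 of 23 neighbours were lower in the LM tumours and 2 higher, with a median log2 fold change of -0.58. Over all genes 23.6% were lower and 19.9% higher, with a median of -0.05.

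Of the theta-class transferases 2 of 4 rose and 0 fell. *Gstt3* was 7.38, 3.85 and 0.309 CPM in HR1, 46.6, 44.96 and 57.4 CPM in LM1 and 64.7, 64.9 and 87.2 CPM in LM9. *Gstt1*, which acts on small halogenated compounds, was 12.0, 11.1 and 3.88 CPM in HR1, 26.4, 20.8 and 28.5 CPM in LM1 and 40.9, 38.4 and 64.9 CPM in LM9. All LM tumours exceeded all HR1 tumours for both, and within HR1 replicate 3 was the lowest for both. *Gstt3* rose 15.7-fold (log2 fold change 3.97, s.e. 0.77, adjusted p = 0.00391) and *Gstt1* 3.87-fold (log2 fold change 1.95, s.e. 0.37, adjusted p = 0.00361), and without HR1 replicate 1 the log2 fold changes were 4.82 and 2.22. *Gstt1* in LM1 versus HR1 (1.49, adjusted p = 0.0201) lost its call without LM1 replicate 1 or 3 (0.0593 and 0.0607). *Gstt3* shares 12.5% of its windows with other transcripts and *Gstt1* none. The other theta-class genes, *Gstt2* and *Gstt4*, did not exceed 1.499 CPM and did not pass (0.12 and 1.04). *Gstz1*, which also isomerises a tyrosine breakdown product, fell in both LM models, from 40.9, 48.9 and 50.4 CPM in HR1 to 14.2, 15.0 and 19.5 CPM in LM1 and 15.1, 12.5 and 14.2 CPM in LM9 (log2 fold change -1.64, s.e. 0.14, adjusted p = 0.000104). The omega-class genes *Gsto1* and *Gsto2* did not pass (0.35 and -1.34, adjusted p = 0.302 and 0.0843), and *Gsto2* passed as lower without HR1 replicate 1 (-1.80, adjusted p = 0.0031).

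The 3 microsomal transferases passed as lower, but they rested on different tumours. *Mgst3* was 30.5, 126 and 162 CPM in HR1, 21.8, 17.5 and 25.1 CPM in LM1 and 15.7, 24.9 and 23.0 CPM in LM9 (log2 fold change -2.32, s.e. 0.41, adjusted p = 0.00263). HR1 replicate 1 was the closest to the LM level. *Mgst1* was 661, 69.4 and 3.45 CPM in HR1, 48.7, 38.6 and 56.5 CPM in LM1 and 2.51, 4.17 and 3.67 CPM in LM9. It passed in LM9 versus HR1 (-6.15, adjusted p = 0.0127) and not in LM1 versus HR1 (-2.35, adjusted p = 0.18). HR1 replicate 3 was at the LM9 level and replicate 1 far above all others, a 192-fold range within 1 model. The log2 fold change of *Mgst1* over both LM models went from -4.25 (adjusted p = 0.0117) to -1.499 (adjusted p = 0.112) without replicate 1. It was then -3.40 in LM9 versus HR1 (adjusted p = 0.0128) and 0.40 in LM1 versus HR1 (adjusted p = 0.719). *Mgst2*, below 3 CPM in all tumours, kept its call (-1.62, adjusted p = 0.039) only without HR1 replicate 1 and was past 0.05 without any other tumour.

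Summed per kilobase of exon, the 19 cytosolic transferase transcripts came to 1309, 669 and 585 CPM per kb in HR1, 364, 308 and 421 in LM1 and 392, 405 and 446 in LM9. HR1 was above both LM models even without replicate 1. *Gstm1* made up 50.0%, 24.3% and 25.4% of this sum in HR1, 5.45% to 6.59% in LM1 and 8.63% to 10.5% in LM9. The theta class made up at most 1.32% in HR1, 8.12% to 8.45% in LM1 and 10.5% to 14.8% in LM9. *Gsto1*, at similar levels in most tumours, made up 4.79%, 23.7% and 21.6% in HR1, 42.7% to 43.4% in LM1 and 32.9% to 34.3% in LM9. No test was made on these sums and shares.

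**Figure D4:**
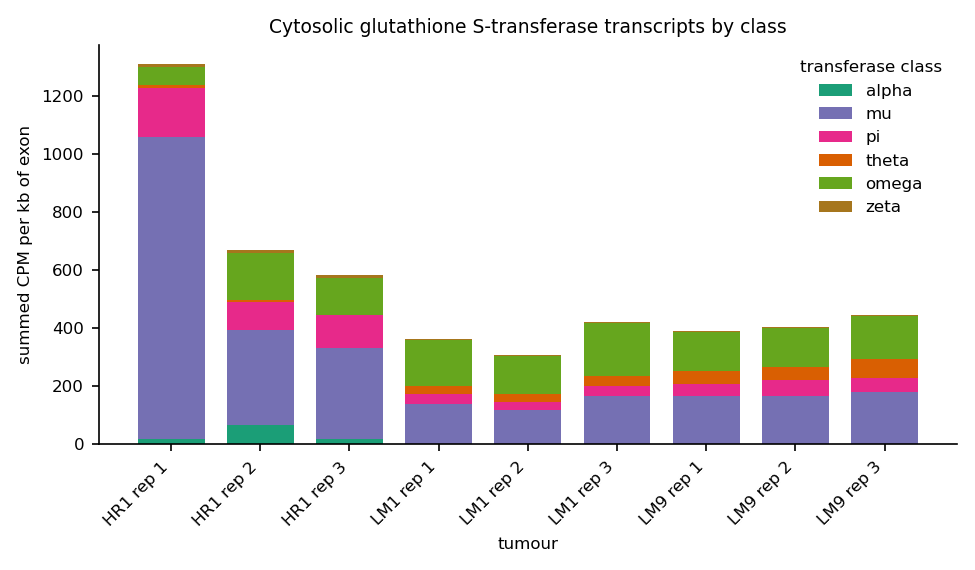
Summed level of 19 cytosolic glutathione S-transferase transcripts in each tumour, in CPM per kb of exon from 0, stacked by class. The mu class makes up 79.3%, 48.5% and 53.5% of the column in HR1 and 38.7% to 42.7% in the LM tumours, where theta-class transcripts take a larger share.

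Over the 43 genes with more than 3 reads in every tumour, the median ratio of the highest to the lowest tumour of a model was 1.78 for HR1, 1.31 for LM1 and 1.27 for LM9. It reached 2 for 20 of these genes in HR1, for 0 in LM1 and for 4 in LM9.

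**Figure D5:**
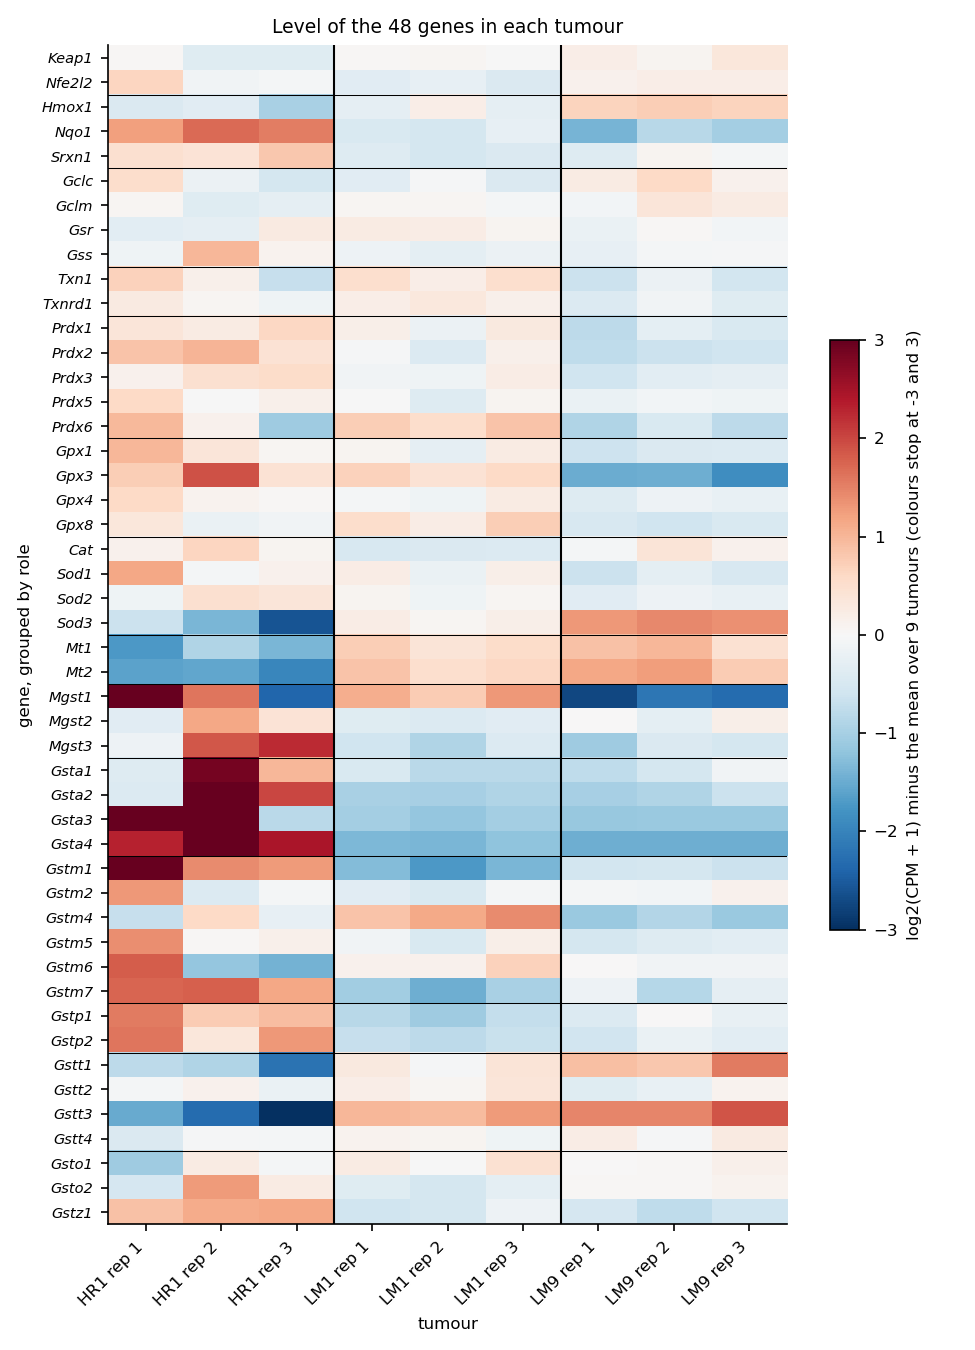
Level of each of the 48 genes (rows, grouped by role) in each of the 9 tumours (columns), as log2(CPM + 1) minus the mean over the 9 tumours, red above and blue below it, with colours ending at -3 and 3. The 3 columns of LM1 and of LM9 look alike within each model, while the HR1 columns differ, with *Gstm1*, *Gstm6* and *Mgst1* highest in replicate 1 and *Gsta1* and *Gsta2* in replicate 2.

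Between the LM models, 10 of the 48 genes differed (20.8%, beside 22.0% of all genes), 2 higher and 8 lower in LM9, beside 11.5% and 10.6% of all genes. In the fit of the 6 LM tumours alone, 28 of 45 genes tested passed (62.2%, beside 56.3% of all genes), 14 in each direction. Without HR1 replicate 1, 22 passed (45.8%, beside 45.5%), 8 higher and 14 lower. The tumours of LM1 and LM9 did not overlap for 33 genes (68.8%, beside 63.0% of all genes), and 0.1 is the smallest p that a two-sided exact permutation test of 3 against 3 tumours can give. *Hmox1* (0.78, adjusted p = 0.0235) and *Cat* (0.61, adjusted p = 0.0455) were higher in LM9. *Gpx3* fell 11.4-fold (-3.51, adjusted p = 0.00376), *Gstm4* to traces in LM9 (-6.09, adjusted p = 0.0103, from -10.32 to -5.52 with a tumour left out, a value that depends on the prior count because 2 of the 3 LM9 tumours hold 0 reads) and *Gpx8*, a peroxidase of the endoplasmic reticulum, 2.02-fold (-1.02, adjusted p = 0.00737). *Gpx8* was 291, 202 and 213 CPM in HR1, 335, 269.6 and 384 CPM in LM1 and 166, 152 and 169 CPM in LM9. The LM9 tumours lay below all HR1 tumours, and the LM1 tumours overlapped HR1. These 3 calls held whichever tumour was left out. *Prdx6* was 798, 439 and 191 CPM in HR1, 676, 581 and 732 CPM in LM1 and 214, 294 and 235 CPM in LM9, lower in LM9 than in LM1 (-1.42, adjusted p = 0.0446). *Nqo1* (-0.68, adjusted p = 0.0342), *Txnrd1* (-0.51, adjusted p = 0.0424), *Prdx1* (-0.61, adjusted p = 0.0489) and *Gsta4*, with 4, 3 and 8 reads in the LM1 tumours and 0 in LM9, were the other genes lower in LM9. The 7 calls outside *Gpx3*, *Gpx8* and *Gstm4* were lost when a single LM tumour was left out, with adjusted p up to 0.178. *Mgst1*, at 13.9-fold less in LM9, missed the threshold (adjusted p = 0.0784) and passed without HR1 replicate 1 (0.00865).

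Beyond the 48, 62 further genes of the same pathways were tested. The examples named here were chosen after their values were seen, and the 62 genes with earlier results of these data known. In LM1 and LM9 versus HR1, 26 passed (6 higher and 20 lower), 41.9% of them beside 43.6% of all genes, and their median log2 fold change was -0.22 against -0.05. The number was 25 (6 and 19) in LM1 versus HR1, in LM9 versus HR1 30 (11 and 19) and in LM9 versus LM1 14 (11 and 3). The shares in these 3 comparisons were 40.3%, 48.4% and 22.6%, beside 35.5%, 42.3% and 22.0% of all genes. Without HR1 replicate 1, there were 30 calls over both LM models (48.4%, beside 56.0% of all genes), 33 for LM1 (53.2%, beside 52.8%) and 36 for LM9 (58.1%, beside 55.7%). Of the calls in LM9 versus LM1 78.6% were higher, which went to 62.5% with library sizes alone in place of TMM scaling, 57.6% without HR1 replicate 1 and 52.8% in the LM tumours alone. Over all genes, 1615 calls in LM9 versus LM1 were higher and 1487 lower. The numbers were 3236 and 3177 without HR1 replicate 1 and 3871 and 3838 in the LM tumours alone. Beside 19.9% of all genes higher and 23.6% lower over both LM models, 7 of 17 other genes known as NRF2 targets were lower and 0 higher, among them *Blvrb*, biliverdin reductase B (-2.59, adjusted p = 0.000312, and -1.98 without HR1 replicate 1), *Pgd* of the pentose phosphate pathway (-0.95, adjusted p = 0.000912) and the ferritin heavy chain *Fth1* (-0.91, adjusted p = 0.00515). The cystine carrier *Slc7a11* was 80.3, 15.2 and 11.0 CPM in HR1, 16.4, 19.6 and 15.8 CPM in LM1 and 14.4, 15.7 and 20.3 CPM in LM9 and did not pass (adjusted p = 0.141). Of 9 genes of glutaredoxins, other thioredoxin-system proteins and *Prdx4*, 6 were lower and 0 higher. *Txnip*, the thioredoxin inhibitor (-2.03 without HR1 replicate 1), was 866, 284 and 466 CPM in HR1, 64.2, 66.2 and 79.0 CPM in LM1 and 150.2, 96.3 and 114 CPM in LM9 (-2.56, adjusted p = 0.000386). Among 9 tested partners and repressors of NRF2 and parts of its degradation machinery, 3 were higher and 0 lower: *Bach2*, a repressor at the same elements (2.6042, adjusted p = 0.0186, and 4.23 without HR1 replicate 1), and the small MAF genes *Mafg* (0.77, adjusted p = 0.00366) and *Maff* (0.95, adjusted p = 0.000759). In LM9 versus HR1 6 of the 9 were higher and 0 lower, beside 20.4% and 21.9% of all genes, and in LM1 versus HR1 2 were higher and 1 lower (*Sqstm1*, -0.64, adjusted p = 0.038), beside 16.7% and 18.7%. Of 10 genes that break down or recycle glutathione, 4 were lower and 1 higher, with *Ggt1* and *Ggt5*, which start its breakdown outside the cell, at most 5.11 CPM in all tumours. Of 6 genes of selenoprotein synthesis 1 was lower. Of 11 genes of zinc and copper handling, 2 were higher and 2 lower. *Slc39a14*, a zinc importer, rose (0.71, adjusted p = 0.0057), as did *Mt3*, the metallothionein beside *Mt2*, which had 0, 0 and 1 reads in HR1, 2.08, 1.201 and 2.01 CPM in LM1 and 0.966, 0.412 and 0.833 CPM in LM9 (adjusted p = 0.000454). Its ratio of summed scaled counts to HR1 was 200 for LM1 (95% counting interval 35.5 to 7920) and 84.1 for LM9 (14.8 to 3360). *Mtf1*, the zinc sensor, did not pass (0.49, adjusted p = 0.0542).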

How the data were processed

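RNA from sorted GFP-positive tumour cells was made into stranded mRNA libraries and read as single 50-base reads. Raw counts were deposited by the authors, who ran STAR against mm10 and counted read 5′ ends over the exons of each gene with QuasR. The versions and the strand setting are not given in the sources used here, so it is not known whether overlapping genes on opposite strands were counted apart. Gene identifiers were matched to symbols, coordinates and exon lengths of the mm10 annotation. Counts, 32393958 to 46681945 per tumour, were tested with edgeR 4.0.16 (R 4.3.3): TMM scaling, filterByExpr, 1 coefficient per model over all 9 tumours, robust quasi-likelihood F-test, and Benjamini-Hochberg adjustment over 14086 genes with a threshold of 0.05. The procedure was tested on simulated counts. Replicates differed by more than sampling noise. Counting intervals and floors of 3 reads cover counting error only. Exact permutation tests used scipy 1.17.1. DESeq2 1.42.0, limma-voom 3.58.1, library-size scaling, a filter of 1 CPM in 3 tumours, no filter, a replicate block, the compared tumours alone and each tumour left out were alternatives. The genes and lists were chosen with earlier results of these data known. Named were members past the threshold with a log2 fold change of at least 1 either way in LM1 and LM9 versus HR1 or LM9 versus LM1 and a mean of at least 1 CPM, the NRF2 axis, metallothioneins, superoxide dismutases and catalase. Other members were named to account for classes of at most 5, and *Gstm2*, *Gstm5* and *Gstm6* after their values were seen.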

Additional observations from a re-analysis of the deposited data

How the results depend on the processing

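Of the counts of differing genes, those of LM9 versus LM1 moved most. The 10 of the 48 genes became 16 with DESeq2, 28 with the LM tumours alone, and 3 to 22 with a tumour left out. The 14 of the 62 further genes became 36 with the LM tumours alone and 4 to 33 with a tumour left out. With a tumour left out, the further genes numbered 16 to 33 in LM1 versus HR1 and 18 to 36 in LM9 versus HR1, and the log2 fold change of *Nfib* ran from -0.17 to 4.85. No call among the 48 or the 62 genes changed sign in the alternatives run, but some calls were lost. In LM9 versus HR1 the 31 of the 48 genes became 25 with limma-voom and 23 with the compared tumours alone. Over both LM models the 27 became 23 with limma-voom and 30 with DESeq2, and *Cat* did not pass with limma-voom or library-size scaling. Among log2 fold changes that missed the threshold, *Gpx8* over both LM models was 0.0279 with library-size scaling. In LM9 versus HR1, *Gsr* was 0.0001, 0.0169 and 0.0079 and *Nfe2l2* 0.0067, 0.0258 and 0.0111 with library-size scaling, limma-voom and the replicate block. With a tumour left out, log2 fold changes over both LM models ran from -0.18 to 0.39 (*Gclc*), -0.12 to 0.16 (*Gpx8*), -0.41 to 0.0088 (*Nfe2l2*), -0.61 to 0.37 (*Prdx6*), -0.46 to 0.20 (*Txn1*) and -0.21 to 0.0053 (*Txnrd1*). In LM1 versus HR1 they ran from -0.48 to 0.0889 (*Gclc*), -2.93 to 0.40 (*Mgst1*), -0.65 to 0.0551 (*Sod1*) and -0.0381 to 0.62 (*Txn1*), in LM9 versus HR1 from -0.28 to 0.073 (*Cat*), -0.11 to 0.21 (*Gsr*) and -0.15 to 0.27 (*Nfe2l2*), and in LM9 versus LM1 from -0.18 to 0.16 (*Mgst3*). The cause of these shifts was not tested. The sources used here do not say what the replicate number stands for, and whether same-numbered tumours share a batch was not tested. Between models, deviations from the model mean correlated at -0.117 to 0.162 for same-numbered tumours and at -0.198 to 0.203 for differently numbered ones. With the replicate block 23, 18, 24 and 7 of the 48 genes passed in the 4 comparisons (47.9%, 37.5%, 50.0% and 14.6%, beside 37.2%, 29.8%, 36.0% and 16.3% of all genes). The 3 tumours per model, the spread within HR1 and the low read numbers of the alpha class in the LM tumours limit what can be resolved.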
